A study of Mus musculus with 3 samples.

Results

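The genes described here encode subunits of the proteasome and were taken from the symbols in the feature list: every symbol that starts with Psma, Psmb, Psmc or Psmd followed by a number, leaving out Psmb8, Psmb9 and symbols of pseudogenes. The rule takes 38 of the 32285 genes. They are 8 genes of the alpha ring and 9 of the beta ring of the 20S core, 6 ATPases and 11 non-ATPase subunits of the 19S cap, 3 chaperones that help to assemble the cap (Psmd5, Psmd9 and Psmd10), and Psmc3ip, a meiotic recombination factor that shares the letters of the symbol and is not a subunit. No measured value entered the rule.

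The proteasome is the protease that degrades most ubiquitin-tagged proteins of the cytosol and nucleus. Its core is a barrel of stacked rings: the outer alpha rings gate the entrance, and the inner beta rings carry the proteolytic sites. The cap recognises ubiquitin, removes it, and its ATPase ring unfolds the substrate and pushes it into the core. Beta cells make large amounts of insulin, and misfolded hormone precursors that are pulled out of the endoplasmic reticulum are degraded by this machine.

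The study profiled pancreatic islet cells of mice 9 months old by droplet single-cell RNA sequencing of 3' transcript ends, in 3 libraries. One is of wild-type mice (WT), and the others carry the genotype labels ASF-KO and SC35-KO, after the former names of the splicing factors SRSF1 and SRSF2. Both proteins bind exons and help to choose splice sites, and the series' title asks for their part in diabetes. Islets were picked by hand after collagenase digestion and dissociated with trypsin. The labels give neither the cells nor the exons in which a gene was deleted, nor the strain, the sex or how many mice went into a library. Each genotype has 1 library, so genotype, mouse and preparation cannot be told apart, no difference between genotypes could be tested, and every interval below covers counting error only.

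The libraries held 154099078, 148320213 and 150116204 UMIs (unique molecular identifiers, each standing for 1 captured transcript). In order of WT, the library labelled ASF-KO and the library labelled SC35-KO, 8997, 7082 and 10799 cells were kept, and pairs of libraries shared 32 to 45 cell barcodes. Cells were sorted into 7 classes by marker genes, with 4704, 3898 and 5048 beta cells, and UMIs were summed per class and library and given as CPM, the usual count scaled to the total of each sum. Each of the 9 endothelial, 9 myeloid, 6 pericyte and 5 delta markers was highest in its own class, as were 8 of 9 beta and 6 of 7 alpha markers; only 3 of 5 gamma markers were, and the gamma marker Tmem100 had no UMI in that class. In beta cells Srsf1 stood at 38.6, 37.0 and 40.3 CPM and Srsf2 at 27.5, 54.2 and 26.5 CPM. Neither targeted gene was much lower under its own label in beta cells. In every other class each was higher in CPM under its own label than in WT. In alpha cells Srsf1 stood at 65.3 CPM in WT and 103.8 under ASF-KO, and Srsf2 at 46.6 in WT and 49.3 under SC35-KO. Directions below therefore rest on the labels alone. A count of 3' ends need not fall when an internal exon is deleted.

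Of the 38 genes, 35 were measured, meaning at least 10 CPM in at least 1 of the sums compared, in every comparison between libraries. The other 3 were close to zero. Psma8, the alpha subunit of the germ-cell proteasome, had 9, 13 and 5 UMIs in endothelial cells of the 3 libraries, 2 and 1 UMIs in pericytes of WT and ASF-KO, 2 UMIs in WT beta cells and 1 in WT alpha cells, and none in delta, gamma or myeloid cells. In beta cells of the libraries labelled ASF-KO and SC35-KO it had 0 UMIs. Psmb11, the catalytic subunit of the thymus proteasome, had 1 UMI each in WT beta cells, SC35-KO beta cells and ASF-KO endothelial cells. Psmc3ip reached 5.37, 6.30 and 5.48 CPM in delta cells and 1.52, 1.02 and 1.01 CPM in beta cells.

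Beta cells of the library labelled ASF-KO held more proteasome transcripts than those of WT when set against the other genes of the same cells. The 38 genes summed to 1468 CPM in WT (95% Poisson interval 1461 to 1475). With the ASF-KO label the sum was 1546 CPM (1539 to 1553), the highest of the 3, and with the SC35-KO label it was 1221 CPM (1214 to 1228), the lowest. Insulin transcripts took 53.5% of beta-cell UMIs in WT, 63.7% under ASF-KO and 63.3% under SC35-KO, and the CPM of the median measured gene fell to 0.741 of WT in the first of these KO libraries and to 0.738 in the second. Ratios to WT are therefore given relative to the median gene, that is, divided by the median CPM ratio of all genes measured. On that scale the summed members stood at 1.42 times WT under ASF-KO (1.41 to 1.43), and 33 of 35 measured members lay above the median gene. At 1.5-fold or more, 10 members were higher and 0 were lower, where 9.06% of all 6579 measured genes were higher and 8.16% lower.

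Among the proteolytic subunits of the core, Psmb5 (chymotrypsin-like activity) stood at 47.3 CPM in WT beta cells, 69.2 CPM under ASF-KO and 46.4 CPM under SC35-KO. The library labelled ASF-KO was the high one, at 1.98 times WT relative to the median gene (1.91 to 2.05), the highest ratio of the 35 members. Psmb6 (caspase-like activity) stood at 73.0, 89.7 and 61.3 CPM, a ratio of 1.66 (1.61 to 1.71) under ASF-KO. Psmb7 (trypsin-like activity) had nearly the same level in the 3 libraries, at 30.1, 29.9 and 28.2 CPM, and so moved with the other members only relative to the median gene, at 1.34 (1.28 to 1.41) under ASF-KO. Psmb10, which takes the place of Psmb7 in the interferon-induced immunoproteasome, went the other way: 11.9, 8.05 and 6.86 CPM, a ratio of 0.915 (0.838 to 0.998) under ASF-KO and 0.782 (0.709 to 0.861) under SC35-KO. It counts as measured through its WT level alone.

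The next highest ratios under ASF-KO were those of Psma5, an alpha-ring subunit, and Psmb2, a beta-ring subunit without a proteolytic site. Psma5 stood at 26.0, 37.9 and 26.7 CPM, a ratio of 1.97 (1.88 to 2.07), and Psmb2 at 46.7, 64.7 and 49.0 CPM, a ratio of 1.87 (1.80 to 1.94). By role, 2 of 7 alpha-ring members, 3 of 8 beta-ring members, 1 of 6 ATPases (Psmc4, 1.75) and 4 of 11 non-ATPase members were at least 1.5-fold higher, and the medians of these roles on the log2 scale were 0.57, 0.46, 0.29 and 0.51. The 3 chaperones of the cap stayed near the median gene, between 0.959 and 1.07. Of these, Psmd5 under ASF-KO and Psmd9 under either KO label count as measured through their WT levels alone. Besides Psmb10, the lowest members were the chaperone Psmd5 (12.7, 9.04 and 10.9 CPM; 0.959, 0.883 to 1.04 under ASF-KO) and the ATPase Psmc6 (40.2, 30.3 and 27.9 CPM; 1.02, 0.970 to 1.06).

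**Figure D1:**
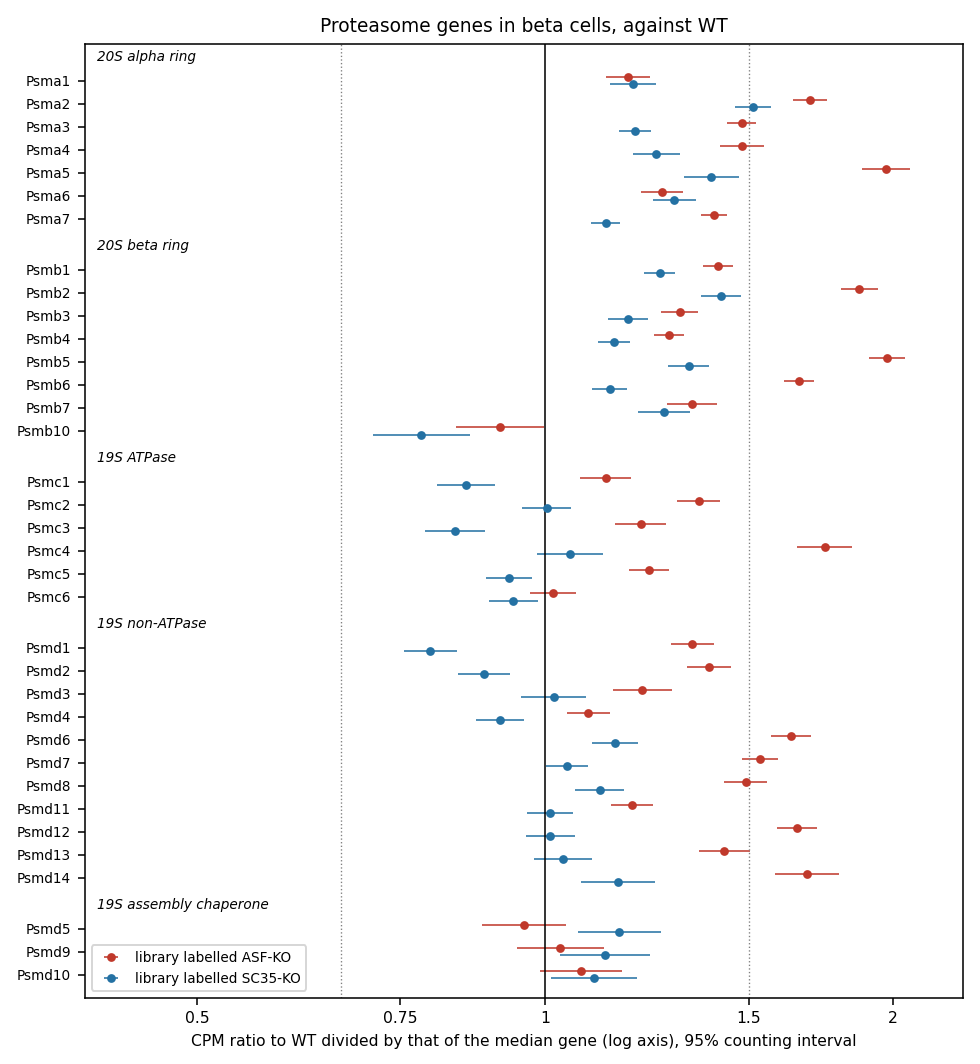
Each row is 1 of the 35 measured members, and points give its CPM ratio to WT in beta cells relative to the median gene on a log axis, with 95% counting intervals, for the library labelled ASF-KO (red) and the library labelled SC35-KO (blue). Dotted lines mark 1.5-fold either way; 10 red points and 1 blue point lie at or past the upper line, and Psmb10 lies left of 1 in both libraries.

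The promoters of Psmb5 and Psma5, the members with the highest ratios under ASF-KO, are shown as a pair with and without the motif named next. That of Psmb6 is shown as a further proteolytic subunit with the motif; its ratio of 1.66 was below those of Psmb2, Psmc4, Psma2 and Psmd14, of which the last 3 had a promoter in the table and no match. RefSeq's table for GRCm38.p6 held a promoter (250 bases before to 50 after the start) for 31 of the 38 genes. Psmb5 and Psmb6 each carry 1 match to TGACNNNGC, the core of the site read by the CNC-Maf factors, the family of NFE2L1 that drives proteasome genes when proteolysis is short; capitals mark it. Psma5 carries no match.
Psmb5 (GRCm38.p6, chr14:54617946-54618245, minus strand): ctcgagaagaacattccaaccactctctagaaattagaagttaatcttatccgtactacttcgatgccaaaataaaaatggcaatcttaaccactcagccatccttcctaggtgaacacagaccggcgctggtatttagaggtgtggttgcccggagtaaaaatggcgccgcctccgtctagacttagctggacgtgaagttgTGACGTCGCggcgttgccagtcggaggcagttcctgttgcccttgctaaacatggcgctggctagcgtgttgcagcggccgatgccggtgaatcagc
Psmb6 (GRCm38.p6, chr11:70525107-70525406, plus strand): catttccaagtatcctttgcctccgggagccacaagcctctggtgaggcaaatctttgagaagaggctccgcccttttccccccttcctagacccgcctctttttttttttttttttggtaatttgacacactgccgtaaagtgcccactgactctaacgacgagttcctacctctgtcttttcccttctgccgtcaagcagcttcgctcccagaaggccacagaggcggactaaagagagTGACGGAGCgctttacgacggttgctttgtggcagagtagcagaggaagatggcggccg
Psma5 (GRCm38.p6, chr3:108256676-108256975, plus strand): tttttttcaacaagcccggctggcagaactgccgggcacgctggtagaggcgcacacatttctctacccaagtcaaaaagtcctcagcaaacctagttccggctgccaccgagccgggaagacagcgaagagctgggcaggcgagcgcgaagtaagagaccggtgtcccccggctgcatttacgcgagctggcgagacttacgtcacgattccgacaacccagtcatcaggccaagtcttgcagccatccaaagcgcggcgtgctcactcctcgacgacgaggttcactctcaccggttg
On either strand, 5 of the 31 promoters held TGACNNNGC (Psmb5, Psmb6, Psmc6, Psmd9 and Psmd12), or 16.1%, against 12.5% of all 27025 promoters of that length. Relative to the median gene these 5 stood at 1.98, 1.66, 1.02, 1.03 and 1.65 under ASF-KO, so both the highest member and some of the lowest hold the letters. CCAAT was found in 13 promoters (41.9%, against 37.9% of all), GGGCGG in 18 (58.1% against 35.9%), and TTCNNNGAA in 1 (3.23% against 8.47%). A match describes letters only.

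In the other classes of the library labelled ASF-KO the summed members lay closer to the median gene. In alpha cells, which make glucagon, they summed to 2603 CPM in WT and 2762 under ASF-KO, 1.02 times WT relative to the median gene (1.01 to 1.04). In delta cells, which make somatostatin, they summed to 2906 and 3228 CPM, a ratio of 1.10 (1.08 to 1.13). In endothelial cells they summed to 4168 and 4000 CPM, a ratio of 0.923 (0.893 to 0.954). No member was at least 1.5-fold higher or lower in these 3 classes, against 4.22% higher and 6.61% lower of all genes in alpha cells, 5.54% and 7.61% in delta cells, and 10.1% and 13.5% in endothelial cells. Across these 4 classes, 29 of the 35 members had their highest ratio in beta cells and 26 their lowest in endothelial cells. The same counts were not made over all genes, so whether they are particular to the members is not known. Psmb5 stood at 96.6 and 109 CPM in alpha cells, 96.5 and 122 CPM in delta cells, and 142 and 117.4 CPM in endothelial cells, so that its order between the libraries turned in the endothelium. Differences between classes in these ratios were not tested. The 97 gamma cells of the library labelled ASF-KO were too few for this comparison, and its 31 myeloid cells gave a sum of 0.830 (0.742 to 0.928) with 3 members at least 1.5-fold higher and 10 lower, where 28.8% and 28.3% of all genes were.

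**Figure D2:**
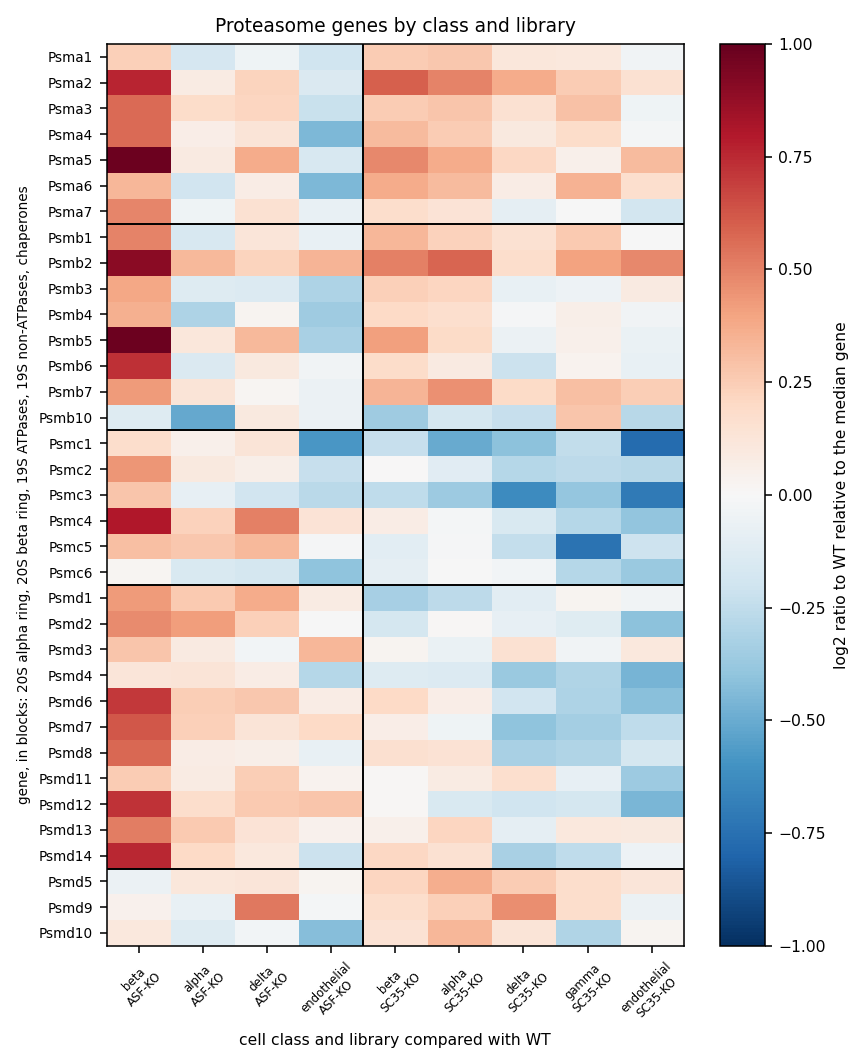
Rows are the 35 measured members in blocks by role, columns are cell classes of the library labelled ASF-KO (left of the line) and of the library labelled SC35-KO (right), and colour gives the log2 ratio to WT relative to the median gene. The beta column of ASF-KO is red in 33 of 35 rows, and in the SC35-KO columns the alpha-ring rows are redder than the ATPase rows.

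In the library labelled SC35-KO the core members of beta cells stood higher relative to the median gene than the ATPases of the cap, with the other cap members between. In beta cells the sum stood at 1.13 times WT relative to the median gene (1.12 to 1.13), 1 member was at least 1.5-fold higher and 0 lower (3.56% and 2.55% of all 6544 measured genes), and 27 of 35 lay above the median gene. The CPM ratio of the sum was 0.832 before that adjustment and 1.09 to 1.12 under 3 other scalings, so its direction in plain CPM turns with the scaling. The 7 alpha-ring members all lay above the median gene, between 1.13 and 1.51, and 7 of 8 beta-ring members did, while 2 of 6 ATPases, 8 of 11 non-ATPase members and all 3 chaperones did. The medians of these roles in that order were 0.32, 0.28, -0.10, 0.03 and 0.17 on the log2 scale. The highest was the alpha-ring subunit Psma2, at 57.9 CPM in WT, 72.6 under ASF-KO and 64.7 under SC35-KO, a ratio of 1.51 (1.46 to 1.57) under SC35-KO. Psmb2 (1.42, 1.36 to 1.48) and Psma5 (1.39, 1.32 to 1.47) came next. The proteolytic subunits Psmb5, Psmb6 and Psmb7 stood at 1.33 (1.28 to 1.39), 1.14 (1.10 to 1.18) and 1.27 (1.204 to 1.34). Apart from Psmb10, the lowest were Psmd1, the large scaffold of the cap's base, and the ATPase Psmc3. Psmd1 stood at 39.6 CPM in WT, 39.3 under ASF-KO and 23.3 under SC35-KO, a ratio of 0.796 (0.755 to 0.839) in the last. Psmc3 stood at 29.1, 26.1 and 18.0 CPM, a ratio of 0.837 (0.788 to 0.888).

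In alpha, delta, gamma and endothelial cells of that library the 6 ATPases all lay below the median gene. Of the 11 non-ATPase members 6 lay above it in alpha cells and 2 in each of the others. Of the 7 alpha-ring members 7, 6, 6 and 3 lay above it in the 4 classes in that order, and of the 8 beta-ring members 7, 3, 7 and 3, so that core members of endothelial cells were mostly below it too. The summed members of the library labelled SC35-KO stood relative to the median gene at 1.11 (1.10 to 1.13) in alpha cells, 0.980 (0.960 to 1.0001) in delta cells, 1.01 (0.977 to 1.04) in gamma cells and 0.923 (0.891 to 0.956) in endothelial cells. No member was at least 1.5-fold higher in any of these 4 classes, where 2.55%, 3.35%, 6.53% and 9.01% of all genes were. The members at least 1.5-fold lower were all ATPases: none in alpha cells (2.72% of all genes), Psmc3 in delta cells (0.645; 3.82%), Psmc5 in gamma cells (0.599; 8.38%), and Psmc1 and Psmc3 in endothelial cells (0.585 and 0.614; 10.4%). Psmc3 stood at 69.8 CPM in WT and 45.3 under SC35-KO in delta cells, and at 157 and 101 CPM in endothelial cells. Over the 5 classes including beta cells, 5 members lay below the median gene in every class: the ATPases Psmc1, Psmc3, Psmc5 and Psmc6, and Psmd4, a ubiquitin receptor of the cap. Another 6 lay above it in every class: Psma2, Psma5, Psma6, Psmb2, Psmb7 and the chaperone Psmd5. How many of all genes lay on the same side in every class was not counted. The 5 classes come from the same pair of libraries and are not replicates of the genotype. In the 87 myeloid cells of that library the sum was 0.944 (0.873 to 1.02), with 3 members higher and 7 lower, where 22.6% and 21.9% of all genes were.

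The UMIs of core genes per UMI of cap genes (20S genes over 19S ATPase and non-ATPase genes) give a ratio that does not depend on the scaling of a library. In beta cells this ratio was 1.35 in WT, 1.48 under ASF-KO and 1.70 under SC35-KO. It was 1.79, 1.56 and 2.21 in alpha cells, 1.60, 1.59 and 1.95 in delta cells, and 1.54, 1.58 and 2.03 in gamma cells. The library labelled SC35-KO was the highest of the 3 in each of these endocrine classes. Outside them it was 1.45, 1.34 and 1.83 in endothelial cells and 1.84, 1.46 and 2.42 in myeloid cells. Relative to WT, the SC35-KO ratio lay between 1.22 (1.16 to 1.27, delta) and 1.32 (1.23 to 1.42, gamma) in these 6 classes, and was 1.04 (0.817 to 1.34) in the 45 pericytes of that library. Under ASF-KO it was higher than WT in beta cells (1.10, 1.08 to 1.11), lower in alpha (0.870, 0.844 to 0.897) and endothelial cells (0.927, 0.866 to 0.991), and its interval held 1 in delta (0.946 to 1.04) and gamma cells (0.947 to 1.12).

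**Figure D3:**
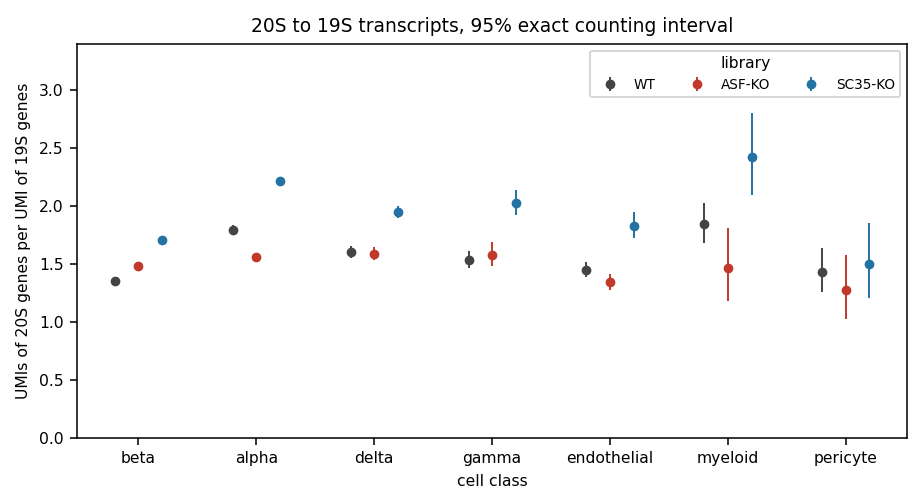
Points give UMIs of 20S genes per UMI of 19S genes in each cell class (horizontal axis) and library (colour), with exact 95% binomial intervals. The library labelled SC35-KO is the highest in 6 classes, from 1.70 in beta to 2.42 in myeloid cells, and its interval overlaps those of the other libraries in pericytes.

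Core genes have shorter transcripts than cap genes, with medians of 1160 and 1591 bases over the measured members (the median length of each gene's coding transcripts). In beta cells transcript length moved with the SC35-KO ratio over all genes: the Spearman correlation across 6418 genes was -0.37, and the median log2 ratio was 0.18 in the shortest quartile of genes and -0.11 in the longest. It was -0.24 across 7649 genes in alpha cells, -0.0049 across 8468 in delta cells, 0.047 across 6028 in gamma cells and 0.057 across 8650 in endothelial cells, correlations across genes that share the same libraries. Across the 35 measured members it was -0.42 in beta cells, -0.26 in alpha, 0.097 in delta, -0.19 in gamma and -0.23 in endothelial cells. The median log2 ratios of core and cap members under SC35-KO were 0.32 and 0.01 in beta cells, 0.26 and -0.02 in alpha, 0.10 and -0.20 in delta, 0.19 and -0.26 in gamma, and -0.02 and -0.36 in endothelial cells. Under ASF-KO the correlation over all genes was -0.15 in beta cells, 0.25 in alpha, 0.14 in delta and 0.28 in endothelial cells, negative where the 20S to 19S ratio was above that of WT and positive in the other 3. The part of transcript length in the 20S to 19S ratios was not tested.

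Of the 35 measured members, Psmb10 had the largest fold change between cell types. In endothelial cells it stood at 181 CPM in WT, 180 under ASF-KO and 157 under SC35-KO, and in myeloid cells at 144, 64.5 and 158 CPM, the middle value from 8 UMIs. In delta cells it stood at 34.5, 37.2 and 29.6 CPM and in alpha cells at 22.9, 16.7 and 17.6 CPM, against 11.9, 8.05 and 6.86 CPM in beta cells. In these plain CPM values, in which insulin lowers every other beta-cell gene, each endothelial, myeloid, delta and alpha value lay above every beta value. Not every gamma value did, and most members were higher in alpha and delta than in beta cells on that scale. Against beta cells, with the 3 libraries as replicates, its log2 fold change was 3.20 (SE 0.19, adjusted p = 2.77e-15) in endothelial cells, 3.11 (SE 0.22, adjusted p = 3.22e-13) in myeloid cells and 0.86 (SE 0.18, adjusted p = 0.00038) in delta cells, by edgeR's quasi-likelihood test with Benjamini-Hochberg adjustment over 13501 genes. In alpha (0.29, SE 0.18, adjusted p = 0.216) and gamma cells (0.17, SE 0.22, adjusted p = 0.619) it did not pass the threshold of 0.05. After each cell was thinned to 2000 UMIs, 28.9%, 31.7% and 23.9% of endothelial cells and 2.16%, 1.63% and 1.33% of beta cells had a Psmb10 UMI. Thinning left out 111, 43 and 126 shallower endothelial cells and 33, 32 and 17 beta cells. Unthinned, the shares were 42.5%, 42.9% and 35.1% of endothelial cells, at median depths of 2971, 3359 and 2515 UMIs, and 22.6%, 19.7% and 11.4% of beta cells, at 22337.5, 26657.5 and 17325 UMIs.

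Beside the constitutive subunit it replaces, Psmb10 gave 28.3% of the joint UMIs of Psmb7 and Psmb10 in WT beta cells (27.0 to 29.6), against 21.2% (19.97 to 22.49) in beta cells of ASF-KO and 19.6% (18.2 to 21.0) in those of SC35-KO. In alpha cells the shares were 29.5%, 21.2% and 21.3%, with WT again the highest. In delta cells they were 36.3%, 37.6% and 29.96%, in endothelial cells 72.8%, 72.7% and 65.1%, and in gamma cells 19.4%, 17.9% and 19.1%. Each 3' count is 1 per transcript and was not divided by length. The summed endothelial markers were highest in WT in beta, alpha, delta and gamma cells, and so were the 22 leukocyte markers given below. All 9 endothelial markers had a UMI in beta cells of each library and summed to 15.4, 6.08 and 6.87 CPM there, to 20.8, 12.7 and 11.8 CPM in alpha cells, and to 34.3, 26.9 and 29.6 CPM in delta cells. In gamma cells the endothelial markers summed to 17.2, 15.3 and 10.3 CPM. Of 24 leukocyte markers, 22 summed to 9.82, 2.13 and 4.90 CPM in beta cells and 22.6, 5.68 and 8.02 CPM in alpha cells. In delta cells the 22 summed to 17.8, 5.25 and 6.21 CPM, and in gamma cells to 10.7, 1.39 and 3.53 CPM. Of the 22, 22, 17 and 16 had a UMI in beta cells, with Ptprc, Cd3g, Trbc2 and Ms4a1 among those at 0 under ASF-KO and Cd3e, Cd3g, Trbc2, Cd79b and Ms4a1 among those at 0 under SC35-KO. The 2 markers left out, C1qa and Cd79a, were set aside after their values were seen; with them the list summed to 81.1, 46.3 and 67.4 CPM in beta cells, 82.6, 57.3 and 65.1 CPM in alpha cells, and 111, 105 and 115 CPM in delta cells. The 9 myeloid markers, C1qa included, summed to 37.9, 34.9 and 50.4 CPM in beta cells and 71.2, 52.4 and 58.98 CPM in alpha cells. Most of that beta-cell sum was C1qa. The 9 had 4051, 3788 and 4609 UMIs there, and the 22 markers, which include the others, had 1050, 231 and 448. With C1qa the beta-cell sum was highest under SC35-KO, and the 22 markers were highest in WT. Psmb8, another inducible subunit, counts as measured in beta cells through its WT level alone. It stood there at 14.1, 9.28 and 9.40 CPM. Relative to the median gene that was 0.889 times WT under ASF-KO and 0.904 under SC35-KO. The part of endothelial and leukocyte RNA in the Psmb10 difference was not tested.

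**Figure D4:**
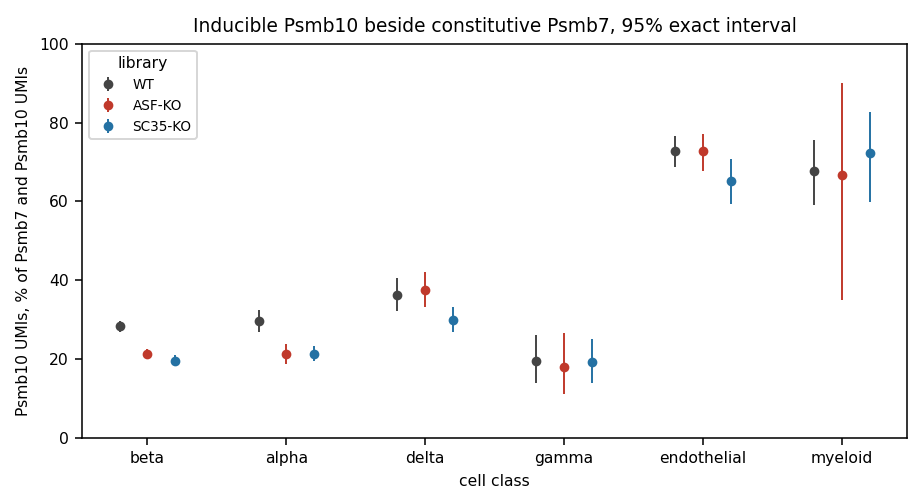
Points give Psmb10 UMIs as a percentage of Psmb7 and Psmb10 UMIs together, by cell class (horizontal axis) and library (colour), with exact 95% binomial intervals. Endothelial and myeloid cells lie at 65.1% or more and the endocrine classes at 37.6% or less; in beta and alpha cells WT lies above the other libraries.

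Other members differed less between cell types. With the 3 libraries as replicates and the library as a block, 37 members were tested among 13501 genes, and the median log2 fold change of the members against beta cells was 0.00 in alpha, -0.04 in delta, 0.34 in gamma, 0.30 in endothelial and 0.29 in myeloid cells, beside -0.02, -0.03, -0.07, -0.08 and -0.37 for all genes. In alpha cells 3 members were higher and 0 lower (18.2% and 21.7% of all genes): Psma5 (0.54, SE 0.16, adjusted p = 0.00767), Psmd9 (0.53, SE 0.15, adjusted p = 0.00565) and Psmb1, a beta-ring subunit (0.43, SE 0.14, adjusted p = 0.015). In delta cells 3 were higher and 0 lower (17.6% and 18.3% of all genes): Psmb10, Psmd9 (0.44, SE 0.16, adjusted p = 0.0289) and the recombination factor Psmc3ip (1.17, SE 0.27, adjusted p = 0.000742). Psmd9, a chaperone of the ATPase ring, was higher than in beta cells in all 5 classes, at 11.1, 8.49 and 9.25 CPM in beta cells against 24.4, 24.1 and 25.04 CPM in alpha cells and 21.7, 31.5 and 30.1 CPM in delta cells. In alpha cells it lost its call without the library labelled SC35-KO (adjusted p = 0.152), and in delta cells without the library labelled ASF-KO (adjusted p = 0.111) or SC35-KO (adjusted p = 0.259).

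Gamma cells, which make pancreatic polypeptide, had 17 members higher and 0 lower (13.6% and 17% of all genes). They include 6 of 8 alpha-ring members, 4 of 8 tested beta-ring members, 1 of 6 ATPases and 5 of 11 non-ATPase members. The largest changes were in Psma5 (0.80, SE 0.17, adjusted p = 0.00038), Psma4, also of the alpha ring (0.64, SE 0.17, adjusted p = 0.00477), and Psmd1 (0.58, SE 0.16, adjusted p = 0.00467). Psma5 stood at 54.6, 80.2 and 54.5 CPM in gamma cells against 26.0, 37.9 and 26.7 CPM in beta cells. The proteolytic subunits Psmb5 (0.54, SE 0.18, adjusted p = 0.0247) and Psmb7 (0.51, SE 0.16, adjusted p = 0.018) were among them, and Psmb6 was not (0.38, SE 0.20, adjusted p = 0.167). In the other 4 classes none of these 3 subunits passed the threshold, with log2 fold changes from -0.18 to 0.24. The gamma count moved when a library was left out: 3 members were higher without WT, 25 without ASF-KO and 1 without SC35-KO. Of all genes, 1146 of 12938, 1938 of 13710 and 1023 of 13314 were higher in these fits, against 1833 of 13501 with all libraries.

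In endothelial cells 17 members were higher and 1 lower (31.2% and 33.9% of all genes). After Psmb10 and the near-zero Psma8, the largest change was in the ATPase Psmc3 (1.32, SE 0.21, adjusted p = 3.26e-06), at 157, 135 and 101 CPM in endothelial and 29.1, 26.1 and 18.0 CPM in beta cells. All 3 chaperones were higher, by 0.66 to 0.999 on the log2 scale. Psmd6, a subunit of the lid that sits on the cap, was lower (-0.51, SE 0.15, adjusted p = 0.00396). In myeloid cells 10 members were higher and 2 lower (21.4% and 28.9% of all genes). The largest changes after Psmb10 were in Psmb3, a beta-ring subunit (1.005, SE 0.16, adjusted p = 4.1e-06), and Psmc3 (0.998, SE 0.27, adjusted p = 0.00233), and Psmd6 (-0.61, SE 0.20, adjusted p = 0.0135) and the lid subunit Psmd3 (-0.60, SE 0.24, adjusted p = 0.0415) were lower. In myeloid cells Psmc3 stood at 114, 8.06 and 87.6 CPM, the middle value from 1 UMI, and lost its call without WT (adjusted p = 0.366) or without the library labelled SC35-KO (adjusted p = 0.124). Without the library labelled ASF-KO the higher counts became 26 in endothelial, 19 in myeloid and 9 in alpha cells. Of all 13710 genes in that fit, 4075, 2940 and 2528 were higher, against 4213, 2885 and 2458 of 13501 with all libraries. Without WT 12 members were higher in endothelial cells, 2 in myeloid and 1 in alpha cells, and without the library labelled SC35-KO 13, 4 and 0. Of all genes, 3621, 2010 and 1850 of 12938 were higher without WT, and 3571, 2391 and 1522 of 13314 without SC35-KO. Plain CPM, in which insulin lowers every other beta-cell gene, called 26 to 36 members higher in each class. Of all 13501 genes it called 9272 higher in alpha, 10550 in delta, 2434 in gamma, 8142 in endothelial and 4428 in myeloid cells.

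**Figure D5:**
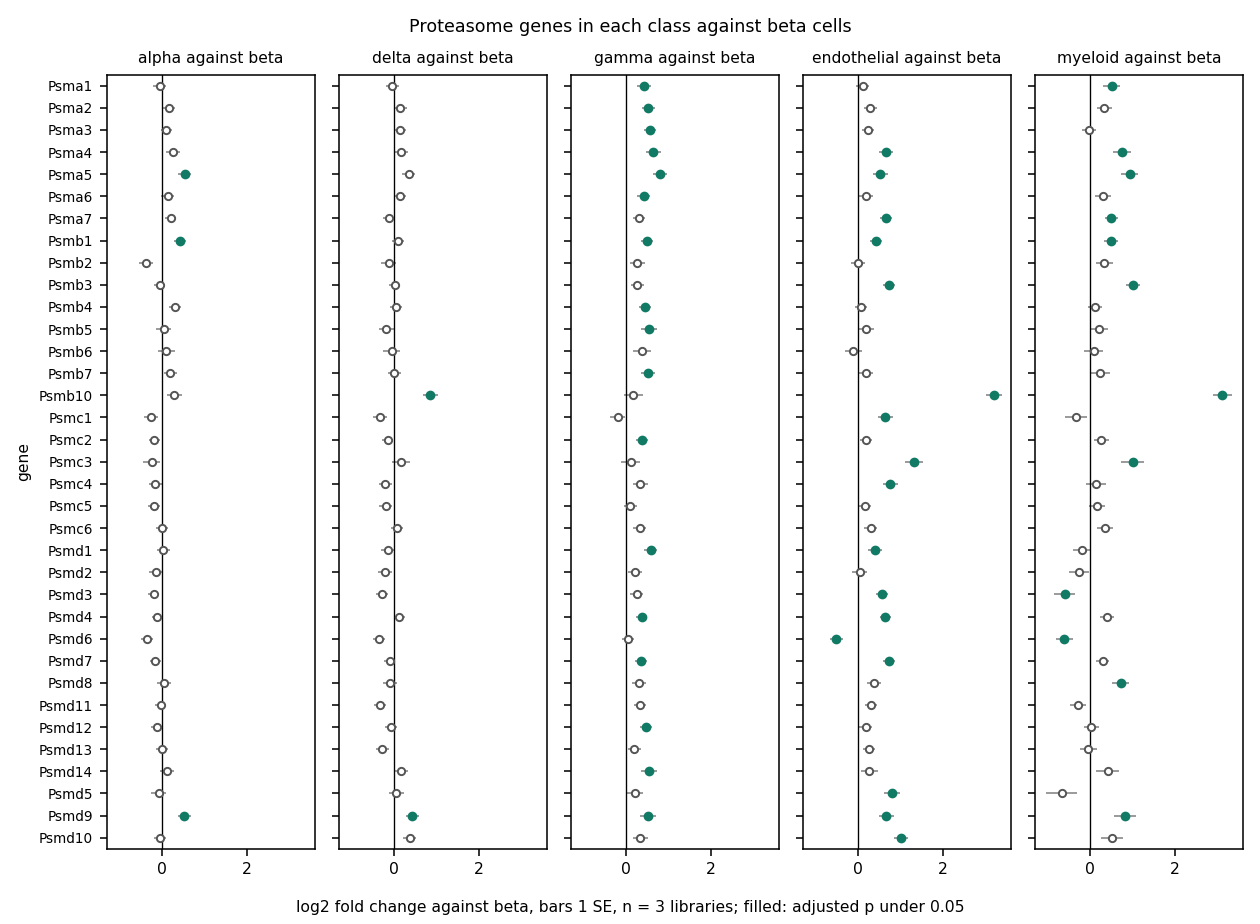
Each panel gives the log2 fold change of 35 members in 1 class against beta cells, with bars of 1 SE over 3 libraries, and filled points pass an adjusted p of 0.05. Psmb10 stands apart from the rest in endothelial and myeloid cells, at 3.20 and 3.11, and 17 points are filled in the gamma panel.

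Of 36 listed genes of the pathway outside the rule, 33 were measured in beta cells under ASF-KO, 4 of them at least 1.5-fold higher and 2 lower, where 9.06% and 8.16% of all genes were. Higher were Pomp, which matures the core (66.0 CPM in WT and 75.01 under ASF-KO; 1.54 relative to the median gene), the core-assembly chaperone Psmg1 (9.10 and 11.5 CPM; 1.70; measured through its ASF-KO level alone), the activator Psme4 (34.3 and 43.7 CPM; 1.72) and the cap-bound deubiquitinase Uchl5 (10.5 and 13.5 CPM; 1.74). One of the lower was the core-assembly chaperone Psmg4 (30.1 and 13.99 CPM; 0.628). Under SC35-KO 2 of 32 were higher in beta cells, the cap subunit Sem1 (113 and 127 CPM; 1.51) and the ubiquitin fusion gene Rps27a (672 and 774 CPM; 1.56), and 0 were lower, where 3.56% and 2.55% of all genes were. The transcript of the regulator Nfe2l1 stood at 98.1, 75.4 and 62.3 CPM in the 3 libraries. These are plain CPM values, and the CPM of the median gene also fell in both KO libraries. Relative to the median gene, the 5 listed regulators had a median log2 ratio of 0.05 under ASF-KO and -0.22 under SC35-KO.

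Between classes, 7 of these 36 pathway genes were higher and 7 lower than in beta cells in alpha cells, 5 and 6 in delta, 9 and 6 in gamma, 16 and 5 in endothelial and 14 and 10 in myeloid cells. The shares of all genes higher and lower were 18.2% and 21.7%, 17.6% and 18.3%, 13.6% and 17%, 31.2% and 33.9%, and 21.4% and 28.9% in the same order. The inducible subunits Psmb8 (3.51, SE 0.18, adjusted p = 6.5e-17) and Psmb9 (3.20, SE 0.22, adjusted p = 2.25e-14) rose with Psmb10 in endothelial cells. So did Psme1, of the interferon-induced activator (2.48, SE 0.13, adjusted p = 1.78e-16), and Pomp (1.505, SE 0.14, adjusted p = 6.73e-11).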

How the data were processed

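The 3 libraries were single-cell preparations of mouse islets, and the deposited files hold UMI counts per gene and barcode as whole numbers, with no normalization by the authors. Build mm10 and the tools Seurat, STAR and Cell Ranger (5.0.0) are listed, with no role, in the submitters' processing notes; whether counting used introns is not given in the sources used here. Members and gene lists were chosen with earlier results of these data known.

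Barcodes under 500 genes, under 1000 UMIs or over 20% mitochondrial UMIs were dropped (978 in WT, 5095 in ASF-KO, 2234 in SC35-KO). Scrublet (scanpy 1.11.5) then removed 291, 319 and 886 doublets. Beta cells had at least 20% insulin UMIs, under 3% glucagon and somatostatin and under 5% Ppy; alpha cells had at least 3% Gcg, delta cells 3% Sst and gamma cells 15% Ppy with under 20% insulin, all with at least 4 of 5 endocrine markers. Endothelial, myeloid and pericyte cells had at least 4 of 9, 5 of 9 and 3 of 6 markers. Gate thresholds were set after the marker levels had been seen, and the marker checks share genes with the gates.

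Libraries were compared by CPM ratios of summed counts, divided by that of the median measured gene, with exact conditional binomial intervals at 95% (Poisson on the log scale for 20S to 19S ratios set against WT), in classes of at least 100 cells per library (myeloid cells are given as description). Classes were compared with beta cells by edgeR 4.0.16 in R 4.3.3: TMM, filterByExpr, and 1 fit over 7 classes with the library as block. The quasi-likelihood test (legacy=FALSE) was followed by Benjamini-Hochberg adjustment over 13501 genes. The simulation given below ran this setting only, so it does not compare its false calls with those of legacy. The p-values of this fit measure how class differences vary between 3 libraries of different genotypes, with the spread estimated over all 7 classes together. Of genes simulated with a change between alpha and beta cells, 44.8% were recovered at 1.5-fold and 82.1% at 2-fold, and 10.0% of calls were false. Members named with values were Psmb5, Psmb6, Psmb7 and Psmb10, the 3 highest and 3 lowest in each beta-cell comparison of libraries (at least 10 CPM and 20 UMIs), the 3 largest and 3 smallest calls in each class comparison, and members under 10 CPM in the sums compared; others were named after their values were seen. Alternatives were DESeq2 1.42.0, other scalings, filters, gates and left-out libraries. GENCODE M21 lists processed pseudogenes of Psmb5, Psmb6 and Psmb7, so reads of these 3 members are uncertain. A count of 0 allows up to 3 UMIs. Values of some listed genes outside the rule are not reported here.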

Additional observations from a re-analysis of the deposited data

Results flagged for a closer look

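Some values moved in opposite directions in different cell classes of the same pair of libraries; with 1 library per genotype none of these differences was tested, and intervals cover counting error only. Relative to the median gene, the summed members stood under ASF-KO at 1.42 times WT in beta cells and 0.923 in endothelial cells. Under SC35-KO they stood at 1.13 in beta cells and 0.923 in endothelial cells. The ratio of 20S to 19S UMIs relative to WT was 1.10 in beta cells and 0.870 in alpha cells under ASF-KO. Among single genes under ASF-KO, Psmb5 stood at 1.98 in beta cells and 0.798 in endothelial cells, and Psma4 at 1.48 and 0.731.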

How the results depend on the processing

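With 1 library per genotype, comparisons between libraries have no replicate check; depth limits the myeloid and pericyte sums most. No paired analysis was possible for libraries against libraries because each genotype has 1 replicate. The ratio of 20S to 19S genes stayed within its interval in all 70 alternatives run, which changed the cell filter, the gate or the removal of doublets.

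Under ASF-KO in beta cells, 5 members were higher with a minimum of 50 CPM, which left 10 measured, and the summed level was 1.41 with that minimum and 1.49 with none. With no minimum it was 1.09 under SC35-KO in beta cells and 1.06 under ASF-KO in alpha cells. Higher counts became 1 in SC35-KO alpha cells (stricter gate), 1 in SC35-KO gamma cells and 1 in ASF-KO endothelial cells (no minimum); a looser gate put the gamma sum at 1.06. Lower counts in ASF-KO endothelial cells were 1 (stricter cell filter, 50 CPM or no minimum) and 2 (stricter gate). In myeloid cells under ASF-KO, 5 were higher (looser gate or 50 CPM), 5 lower (50 CPM), and the sum was 0.728 (stricter cell filter); under SC35-KO 1 was higher (looser gate) and 4 lower (looser cell filter). The CPM ratio of the sum under SC35-KO turned from 0.832 to 1.12, 1.09 and 1.10 in beta cells and from 0.970 to 1.09, 1.11 and 1.11 in alpha cells with totals without hormone and mitochondrial genes, median of ratios and TMM. It turned to 1.05 in delta and 1.14 in gamma cells without those genes, and to 1.01 in gamma cells with TMM. The cause was not tested.

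Against beta cells, plain CPM called 36, 36, 26, 36 and 28 members higher in alpha, delta, gamma, endothelial and myeloid cells, and moved the median of all genes to 0.80, 1.05, 0.12, 0.997 and 0.39. It called 0 lower in endothelial and myeloid cells and reversed Psmb5 (0.94) and Psmb6 (1.07) in delta cells, Psmb6 (1.02) and Psmd6 (0.60) in endothelial cells, and Psmd3 (0.18) and Psmd6 (0.20) in myeloid cells. With no replicate block, 0 were higher in alpha, 2 in delta, 3 in gamma, 14 in endothelial and 9 in myeloid cells, and 1 lower in myeloid cells. Leaving out 1 library gave 0 to 9, 2 to 4, 1 to 25, 12 to 26 and 2 to 19 higher in the 5 classes in that order, and 0, 0 to 1, 0, 0 to 1 and 0 to 2 lower. Of all genes, the same fits called 1522 to 2528, 1496 to 2331, 1023 to 1938, 3571 to 4075 and 2010 to 2940 higher. In alpha cells 1 was lower with DESeq2, a looser cell filter or gate, doublets kept or only 2 classes fitted, and 2 with no filter on low counts or legacy quasi-likelihood. In delta cells 5 were higher with DESeq2, its size factors, legacy quasi-likelihood or only 2 classes, and lower were 1 with DESeq2, 2 with no filter or doublets kept, 4 with legacy and 3 with only 2 classes. In gamma cells 7 were higher with no filter, 11 with a stricter cell filter and 10 with a looser gate. In endothelial cells 2 were lower with a stricter cell filter or only 2 classes. In myeloid cells 17 were higher with DESeq2 size factors and 3 with only 2 classes, and lower were 0 with DESeq2, a stricter cell filter or only 2 classes and 1 with DESeq2 size factors, legacy, or a looser cell filter or gate. The legacy fit was added after seeing the data, as were the cell filter, gate and doublet alternatives of the 20S to 19S ratio. Psmd9 also lost its call without the block in alpha (adjusted p = 0.0635, edgeR) and delta cells (adjusted p = 0.145). Thinned to 1000 UMIs, Psmb10 was seen in 1.32%, 1.10% and 0.911% of beta and 15.4%, 14.5% and 16.9% of endothelial cells; unthinned, in 22.6%, 19.7% and 11.4%, and 42.5%, 42.9% and 35.1%.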
